A study of Caenorhabditis elegans with 2 samples.

Results

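Chromosome X of Caenorhabditis elegans held 278 of the 1534 regions in the final list for the zinc finger protein LIN-13. The data came from chromatin immunoprecipitation and sequencing (ChIP-seq). The 278 regions are all entries on X of that list in build ce11. The authors obtained it by comparing ranked regions between replicates with the irreproducible discovery rate (IDR). It equals the first 1534 regions, by signal, of the list from both replicates pooled. A single region in it can therefore rank low in 1 replicate. The other 1256 regions of that list lie on the 5 autosomes and are set beside X throughout. The animals were whole embryos of mixed stage, with males and females pooled, of strain OP51, genotype unc-119(ed3) III with the insertion wgIs51. That insertion expresses LIN-13 fused to eGFP in the unc-119 mutant background, which every animal shared. The 2 samples were biological replicates of 1 group, so no treated or mutant group was compared. The labels name an eGFP fusion as the target but list lin-13 as the antibody, and whether endogenous LIN-13 was also recovered was not tested. The labels also point to a possible control, and per the headers a control was used in making the lists. No control was analysed on its own here. A region is a stretch of sequence listed by the authors' peak caller. Its summit is the base of highest enrichment, and its signal is the enrichment value that the caller assigned within 1 list. The pooled list was input for IDR and also holds background, so a region in it is not by itself a call of binding.

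LIN-13 belongs to the class B synthetic multivulva (synMuv B) proteins, which hold down vulval and germline genes in somatic cells, and it acts with the heterochromatin protein HPL-2. Hermaphrodites carry a pair of X chromosomes and males a single copy, and in XX embryos the dosage compensation complex binds X at recruitment sites, many of which carry the MEX motif, and lowers transcription along the chromosome. X is also poor in germline and housekeeping genes and rich in transfer RNA (tRNA) genes.

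Sequences from the strongest X summits are shown first, because they carry the highest signal on the chromosome and few matches to the motifs searched. The 3 strongest MEX sites are shown because that motif was nearly limited to X among the regions of the list. Each is the ce11 plus strand from the reference genome, 75 bases to each side of a summit, named after the nearest protein-coding gene. Capitals mark matches to a motif on either strand. The motifs searched were the MEX core GCGCAGGG, the GAGA repeat GAGAGAGA, and the core GGTTCGA of the B box, an internal promoter element of tRNA genes. The E2F-like motif was any of 4 words, of which the first was TTCCCGC and the second was TTCGCGC, while the others were TTGCCGC on the one hand and TTGGCGC on the other hand. The words TTCGCGC and TTGGCGC can each overlap the MEX core by their last 4 bases.
serp-1.1, chrX:15841192-15841342, plus strand: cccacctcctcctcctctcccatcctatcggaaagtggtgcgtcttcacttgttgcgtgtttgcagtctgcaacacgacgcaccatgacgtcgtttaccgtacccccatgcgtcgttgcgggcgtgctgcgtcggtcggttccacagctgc
K02D3.1, chrX:13700833-13700983, plus strand: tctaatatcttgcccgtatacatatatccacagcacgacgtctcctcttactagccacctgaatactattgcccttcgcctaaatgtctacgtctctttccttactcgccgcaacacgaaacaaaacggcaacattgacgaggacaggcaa
hsp-3, chrX:6092128-6092278, plus strand: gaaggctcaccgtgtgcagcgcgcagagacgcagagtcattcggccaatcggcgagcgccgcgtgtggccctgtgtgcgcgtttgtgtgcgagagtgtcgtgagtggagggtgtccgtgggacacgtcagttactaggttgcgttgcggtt
ftt-2, chrX:11605858-11606008, plus strand: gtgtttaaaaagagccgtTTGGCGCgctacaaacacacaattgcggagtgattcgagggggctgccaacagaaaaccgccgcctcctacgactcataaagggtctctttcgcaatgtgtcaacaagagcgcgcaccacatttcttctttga
C30E1.4, chrX:16929695-16929845, plus strand: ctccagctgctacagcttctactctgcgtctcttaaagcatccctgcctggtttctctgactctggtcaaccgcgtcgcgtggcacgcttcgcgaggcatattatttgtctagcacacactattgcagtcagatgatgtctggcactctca
pkhm-2, chrX:15181569-15181719, plus strand: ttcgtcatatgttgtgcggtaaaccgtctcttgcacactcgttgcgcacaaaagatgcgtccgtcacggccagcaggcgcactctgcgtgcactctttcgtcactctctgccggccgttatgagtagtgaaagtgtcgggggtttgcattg
hil-3, chrX:8157217-8157367, plus strand: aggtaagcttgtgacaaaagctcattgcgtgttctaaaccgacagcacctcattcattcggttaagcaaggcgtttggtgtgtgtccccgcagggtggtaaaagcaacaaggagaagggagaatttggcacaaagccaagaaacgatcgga
W02H3.3, chrX:11094122-11094272, plus strand: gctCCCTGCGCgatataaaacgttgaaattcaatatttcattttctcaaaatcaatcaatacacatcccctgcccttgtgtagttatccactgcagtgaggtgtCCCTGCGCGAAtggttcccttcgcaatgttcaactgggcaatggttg
nspc-17, chrX:14525814-14525964, plus strand: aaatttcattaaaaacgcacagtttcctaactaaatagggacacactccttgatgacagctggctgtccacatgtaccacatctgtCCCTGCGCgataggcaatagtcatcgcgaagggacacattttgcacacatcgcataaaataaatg
mom-1, chrX:6296443-6296593, plus strand: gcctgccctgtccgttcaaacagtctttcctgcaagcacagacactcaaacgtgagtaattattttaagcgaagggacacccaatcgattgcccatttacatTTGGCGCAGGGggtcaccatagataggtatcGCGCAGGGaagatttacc
F40B5.2, chrX:8368245-8368395, plus strand: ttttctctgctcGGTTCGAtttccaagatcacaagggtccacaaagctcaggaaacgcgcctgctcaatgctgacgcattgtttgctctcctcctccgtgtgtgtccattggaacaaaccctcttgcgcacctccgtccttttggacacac
snx-17, chrX:13121232-13121382, plus strand: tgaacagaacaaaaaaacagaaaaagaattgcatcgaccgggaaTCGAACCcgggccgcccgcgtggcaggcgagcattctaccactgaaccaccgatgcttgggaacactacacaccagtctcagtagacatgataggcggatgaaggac
C16B8.3, chrX:3970097-3970247, plus strand: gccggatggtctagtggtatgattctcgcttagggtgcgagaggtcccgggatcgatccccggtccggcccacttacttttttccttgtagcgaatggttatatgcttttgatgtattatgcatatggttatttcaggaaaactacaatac

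The first 7 of these 13 windows belong to the strongest X regions, and among them a single motif match was found, an E2F-like word near ftt-2. The windows near W02H3.3, nspc-17 and mom-1 each carried the MEX core, and W02H3.3 and mom-1 carried further copies. The windows of mom-1 and F40B5.2 are the strongest in introns. Those of snx-17 and C16B8.3 are the strongest near tRNA genes, which lie at the centre of the first and at the left edge of the second.

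X carried its regions at close to the density of its length. The 278 regions were 18.1% of the list (95% exact Clopper-Pearson interval 16.2 to 20.1%), and X makes up 17.7% of the length of the 6 nuclear chromosomes. Density was 15.7 regions per Mb on X, against 15.2 per Mb on the autosomes together, where it ran from 9.08 per Mb on V to 22.2 per Mb on III. X was therefore within the range of the autosomes. Because X holds 13.7% of protein-coding genes, it had 10.2 regions per 100 coding genes, against 7.28 on the autosomes, which ranged from 3.80 on V to 11.6 on III. Regions of 1 experiment are not replicates of each other, so no p-value is given, and intervals cover the counting of regions only. The spread between samples is shown by the first 1534 ranks of each replicate's own list, of which X held 20.1% in replicate 1 and 15.3% in replicate 2.

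Along X, the outermost summits lay at positions 353319 and 17610599 of 17718942, and every 1 Mb bin held at least 8 regions. With the chromosome divided into 10 equal bins, X had between 21 and 39 regions in each. The left, middle and right parts of equal length held 97, 80 and 101 regions, although the middle part had the most coding genes, 977 against 871 in the left and 883 in the right part. Thus 28.8% of the X regions and 35.8% of the X coding genes were in the middle part. On the autosomes the middle share of regions was between 32.4% on III and 44.7% on V. The median spacing of neighbouring X summits was 41.4 kb and the longest stretch without a summit was 359 kb.

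**Figure D1:**
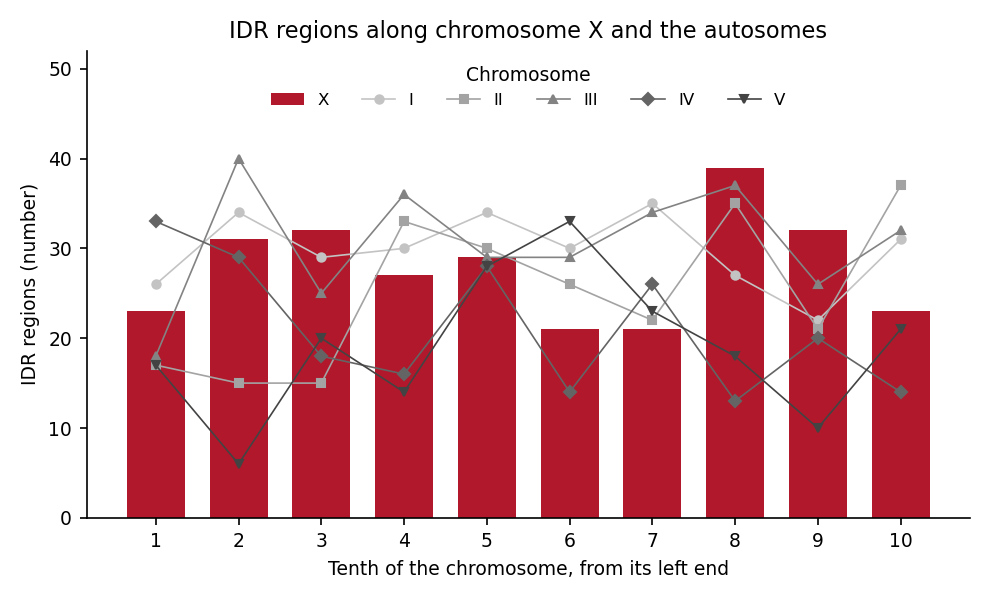
Number of IDR regions in each of 10 equal bins along a chromosome, counted from its left end. Bars show X and lines show chromosomes I to V. The bars of X lie between 21 and 39, and the points of chromosome V between 6 and 33.

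Signal on X was close to that of the autosomes in its middle range, and X held few of the first 100 ranks of the pooled list. The median signal was 49.3 on X and 49.5 on the autosomes, with quartiles of 39.1 and 66.7 on X and of 39.3 and 68.8 on the autosomes. These medians combine gaps in opposite directions. In promoter windows, defined below, the medians were 48.1 on X and 52.9 on the autosomes. Outside them they were 49.9 on X and 44.1 on the autosomes. The highest signal was 204 on X and 488 on the autosomes, and the best X rank in the list was 16. X held 1 of the first 25 ranks of the pooled list (4%), 10 of the first 100 (10%) and 88 of the first 500 (17.6%). The first 1534 ranks are the IDR list itself, with 278 on X. In the replicates' own lists, X held 18 of the first 100 ranks in replicate 1 and 10 in replicate 2. The share in replicate 1 was thus close to the 17.7% of length that X makes up. The whole pooled list of 30000 ranked regions had 4679 on X. Of these, 5.94% were in the IDR list, against 4.96% on the autosomes and 5.11% of all 30000. The lowest signal of an X region in the IDR list was 32.82, and the highest on X below the list was 32.73.

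The strongest X region lay 305 bp upstream of serp-1.1, whose RefSeq product is a stress-associated endoplasmic reticulum (ER) protein. It covered chrX:15841169-15841384, had a signal of 204, and ranked 10 in replicate 1 and 39 in replicate 2. The third, at chrX:6092106-6092246, was 79 bp upstream of hsp-3, which encodes an ER chaperone of the Hsp70 family. Its signal was 155, and it ranked 23 in replicate 1 and 88 in replicate 2. Further strong promoter regions lay at pkhm-2 (RUN domain protein, 179 bp upstream, signal 130.3) and F35A5.8 (SH3 domain GRB2-like protein, 54 bp upstream, signal 122). These 4 regions ranked higher in replicate 1 than in replicate 2.

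The next promoter regions in order of signal were at puf-9, a Pumilio family RNA-binding protein (115), at the divergent pair glit-1 and dnj-14, a neuroligin-like protein and a DnaJ protein (111), and at zfp-3, a C3H1 zinc finger protein (109.7). The region 398 bp upstream of rpl-11.2, a protein of the large ribosomal subunit, had a signal of 108. Those at uggt-1, a glucosyltransferase of glycoprotein quality control, and F17E5.2, a putative mitochondrial carrier, had signals of 102 and 101. T13C5.6, a phosphatidic acid phosphatase domain protein, and C18B12.4, a RING domain protein, closed the first 20 with 99.99 and 97.8. Each of these 8 regions had its summit between 152 and 398 bp upstream of the annotated start of its nearest gene.

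The other 8 of the 20 strongest X regions were outside promoter windows. The second strongest, with a signal of 156, was intergenic and 5999 bp upstream of K02D3.1, an uncharacterised gene, and ranked 157 in replicate 1 and 22 in replicate 2. The region near ftt-2, which encodes a 14-3-3 protein, was 514 bp upstream, just beyond the window edge at 500 bp, with a signal of 142. The nearest coding start to the fifth region, also with a signal of 142, was that of C30E1.4, of the SID1 transmembrane family, and the summit lay 5834 bp downstream of it. A region 1877 bp upstream of hil-3, a linker histone H1 gene, had a signal of 129 and ranked 1176 in replicate 1 against 24 in replicate 2. By contrast, the region 754 bp upstream of spc-1, the alpha-spectrin gene, had a signal of 106 and ranked 21 in replicate 1 and 799 in replicate 2. The rest of the 8 lay near W02H3.3 (120.5), nspc-17 (118) and mgrn-1, a RING-type ubiquitin ligase (113).

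At the bottom of the list, the last 3 X regions were at the divergent promoter of H35N09.1 and H35N09.2 (33.0), 2766 bp upstream of jud-4 (32.89) and 111 bp into T07F12.2 (32.82). The region at T07F12.2 ranked 878 in replicate 1 and 18223 in replicate 2, and that at jud-4 ranked 2226 in replicate 1 with no counterpart in replicate 2. At H35N09.1 the ranks were 1284 and 2155.

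Fewer X regions than autosomal regions lay at promoters. A promoter window ran from 500 bp upstream to 200 bp downstream of any annotated protein-coding transcription start site (TSS). It held the summit of 147 of 278 X regions (52.9%, interval 46.8 to 58.9%) and of 866 of 1256 autosomal regions (68.9%, 66.3 to 71.5%). Every autosome had a higher share than X, from 63.1% on III to 72.1% on V. In replicate 1 alone the shares were 53.9% on X and 67.4% on the autosomes, and in replicate 2 they were 46.0% on X and 62.1% on the autosomes. Promoter windows cover 13.4% of X and 17.1% of the autosomes, and summits of both sets were in them more often than this cover. Lower-ranked regions of the pooled list were at promoters in 18.4% of cases on X and 20.2% on the autosomes. The difference was larger at the top of the list, where among the first 100 ranks 4 of 10 X regions and 83 of 90 autosomal regions were at promoters.

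Within promoter windows, X summits were a median of 190 bp from the TSS, against 164 bp on the autosomes, and lay upstream of it in 93.2% of cases on X and 94.3% on the autosomes. Most X promoter regions served a single gene. Only 19 of the 147 (12.9%, 7.96 to 19.4%) fell in the windows of 2 or more coding genes, such as glit-1 with dnj-14 or cdk-4 with F18H3.1, against 322 of 866 on the autosomes (37.2%, 34.0 to 40.5%). The replicate lists gave 10.8% on X and 35.6% on the autosomes in replicate 1, and 10.2% on X and 36.2% on the autosomes in replicate 2. The 147 regions therefore reached 165 coding genes. That is 6.04% of the 2731 coding genes on X, against 6.83% of autosomal coding genes and 6.72% of all, with autosomes between 3.80% on V and 10.2% on III. In replicate 1 alone the order turned, with 6.70% on X and 6.51% on the autosomes, and in replicate 2 the shares were 4.36% on X and 6.29% on the autosomes. The lower promoter share on X thus went with a gene coverage within the autosomal range.

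**Figure D2:**
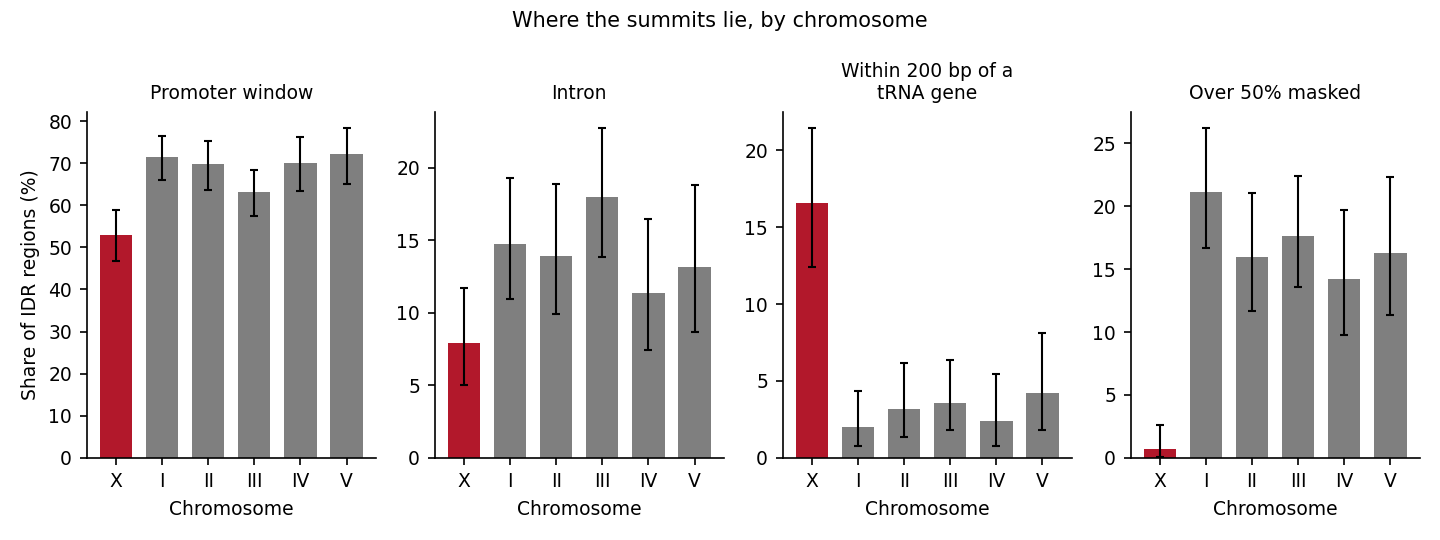
Share of IDR regions, in percent, whose summit lay in a promoter window, in an intron or within 200 bp of a tRNA gene, or whose summit window was over 50% masked, for X and chromosomes I to V. Error bars are 95% exact binomial intervals over regions. X was lowest in promoter, intron and masked share and highest in tRNA share.

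More X summits than autosomal summits were far from coding starts, which goes with the lower promoter share. Of all X summits, 31.7% were over 1 kb from the nearest coding TSS, against 19.98% on the autosomes. In replicate 1 alone the values were 28.9% on X and 20.6% on the autosomes, and in replicate 2 they were 39.1% on X and 26.6% on the autosomes. Among summits outside promoter windows alone the sets were close, with 88 of 131 over 1 kb away on X and 251 of 390 on the autosomes, at median distances of 1502 bp on X and 1343.5 bp on the autosomes. The 131 X regions outside promoter windows comprised 81 in intergenic sequence, 35 in exons of noncoding RNA genes and 13 in introns, and 40 of the 131 were within 200 bp of a tRNA gene. The farthest was 15163 bp from the nearest start, that of C41A3.2. It lay in a coding exon of another gene, pks-1, and carried the MEX core.

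**Figure D3:**
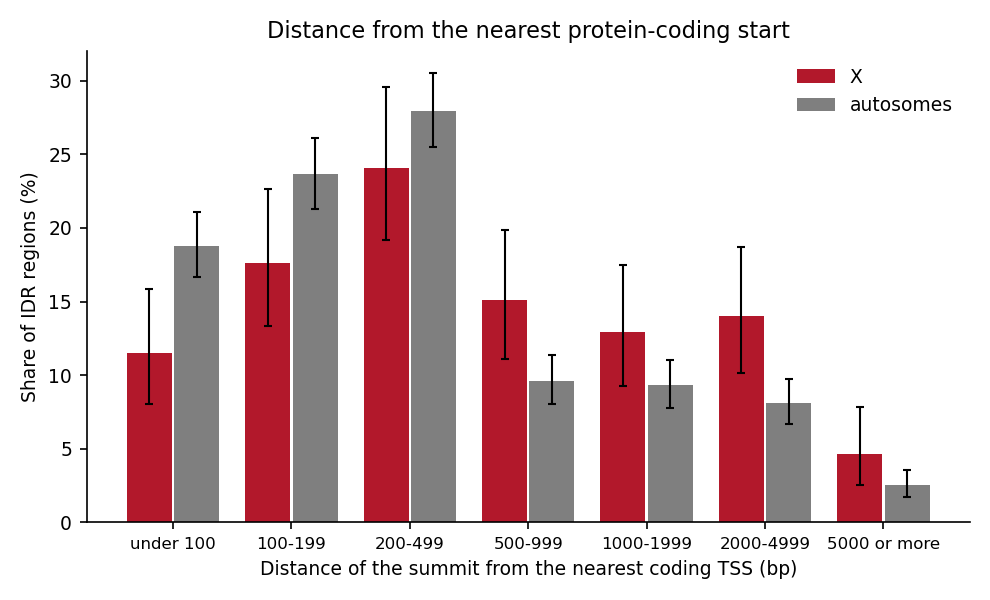
Share of IDR regions, in percent, by distance in bp between the summit and the nearest protein-coding TSS, for X and the autosomes together, with 95% exact binomial intervals over regions. The X share was below the autosomal share in each bin under 500 bp and above it in each bin from 500 bp up.

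Introns held 22 X summits (7.91%, 5.03 to 11.7%), against 183 on the autosomes (14.6%, 12.7 to 16.6%), where the share was between 11.4% on IV and 17.97% on III. Introns cover 29.9% of X and 33.1% of the autosomes. The 2 samples disagreed on the size of this gap, with 12.99% on X and 13.7% on the autosomes in replicate 1, and 8.51% on X and 19.1% on the autosomes in replicate 2. The gap was thus within the spread between samples.

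Of the 22 intronic X regions, 11 were in the first intron of their host and 9 were also in a promoter window. The strongest was in the last intron, number 7, of mom-1, which encodes a Porcupine-type acyltransferase needed for Wnt secretion, where the signal was 89.4 and the ranks were 367 and 135. F40B5.2, a putative metallophosphoesterase, followed with 80.8 in intron 1, then Y41G9A.17 with 65.3 in intron 6. R03G5.6 had a region in an intron of 7576 bp (62.2). The ldb-1 gene, for a LIM domain-binding protein, had a pair of regions, with signals of 58.9 and 46.7, in its first intron of 7606 bp. The remaining hosts among the 10 strongest were pqn-65 (56.2), sulp-3 (54.7), C15H9.4 (53.4), nhr-17 (53.0) and F09A5.3 (49.9). The regions in sulp-3 and nhr-17 were also within 200 bp of a tRNA gene.

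Regions near tRNA genes made up a larger share on X than on any autosome. A tRNA gene lay within 200 bp of the summit of 46 X regions (16.5%, 12.4 to 21.4%), against 38 autosomal regions (3.03%, 2.15 to 4.13%), and no autosome exceeded 4.21%. The shares were 5.52% on X and 1.55% on the autosomes in replicate 1, and 19.6% on X and 4.23% on the autosomes in replicate 2, so the direction held in both samples and the level differed between them. X has 276 annotated tRNA genes and the autosomes 336. Of these, 51 had a summit within 200 bp on X (18.5%, 14.1 to 23.6%) and 44 on the autosomes (13.1%, 9.68 to 17.2%), against 15.5% of all tRNA genes. Chromosomes II and III had shares of 17.5% and 20.3%, so per tRNA gene X was inside the autosomal range.

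The summit was inside the tRNA gene itself in 23 of the 46 X regions, and 26 of them carried the B box core, against 9 of the 232 other X regions. That word occurs in 1.33% of all 201-base windows of X and 1.48% of those of the autosomes. The strongest was at F17H10.t1, a glycine tRNA gene shown above in the snx-17 window, where the signal was 85.6 and the ranks were 992 and 130. The proline tRNA genes C16B8.t2 and C16B8.t3 shared a region with a signal of 80.4, which ranked 2427 and 132. The histidine tRNA gene C06G1.t1 followed with 79.9 and ranks of 827 and 221. By isotype, 8 of 20 proline, 6 of 13 alanine, 5 of 20 glycine and 5 of 17 leucine tRNA genes on X had a region, while none of 7 cysteine, 6 phenylalanine and 5 tryptophan genes did. Copies of 1 isotype can be near identical, and how reads were shared among them is not given in the sources used here, so the copy at which signal is listed is uncertain.

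Other small RNA genes were rarely near X summits. Only 2 X regions (0.719%) were within 200 bp of a small nucleolar RNA (snoRNA) gene, D2021.6 and Y102A11A.16, against 61 autosomal regions (4.86%). X has 33 snoRNA genes and the autosomes 313, so 6.06% of the X genes (0.743 to 20.2%) and 19.8% of the autosomal genes (15.5 to 24.7%) had a summit. A single X microRNA gene, cel-mir-54, of 74 on X had one (1.35%), against 6 of 187 on the autosomes (3.21%), with overlapping intervals. None of the 3 small nuclear RNA genes on X did, against 14 of 126 on the autosomes.

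Among summits of the IDR list, those with the MEX core were almost all on X. It was within 100 bp of the summit in 14 of 278 X regions (5.04%, 2.78 to 8.31%) and in 2 of 1256 autosomal regions (0.159%, 0.0193 to 0.574%). In replicate 1 alone it was at 10 of 308 X summits and at 0 of 1226 autosomal summits, and in replicate 2 at 13 of 235 on X and 4 of 1299 on the autosomes. The word itself is also commoner on X, in 0.0855% of all 201-base windows of X and 0.0544% of those of the autosomes. That is 4.57 copies per Mb on X and 2.82 per Mb on the autosomes. The 14 regions held 18 copies. Of the 81 copies on the whole of X, 18 (22.2%) were therefore under an X summit, whereas 2 of the 233 autosomal copies (0.858%) were under an autosomal summit.

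The share of X regions with the core was larger at higher ranks of the pooled list. It was 2 of 10 in ranks 1 to 100, 7 of 78 in ranks 101 to 500, 5 of 190 in ranks 501 to 1534, 7 of 555 in ranks 1535 to 5000 and 6 of 3846 (0.156%) in ranks 5001 to 30000. On the autosomes no bin exceeded 0.311%, and the lowest bin, at 0.132%, had nearly the share of X.

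**Figure D4:**
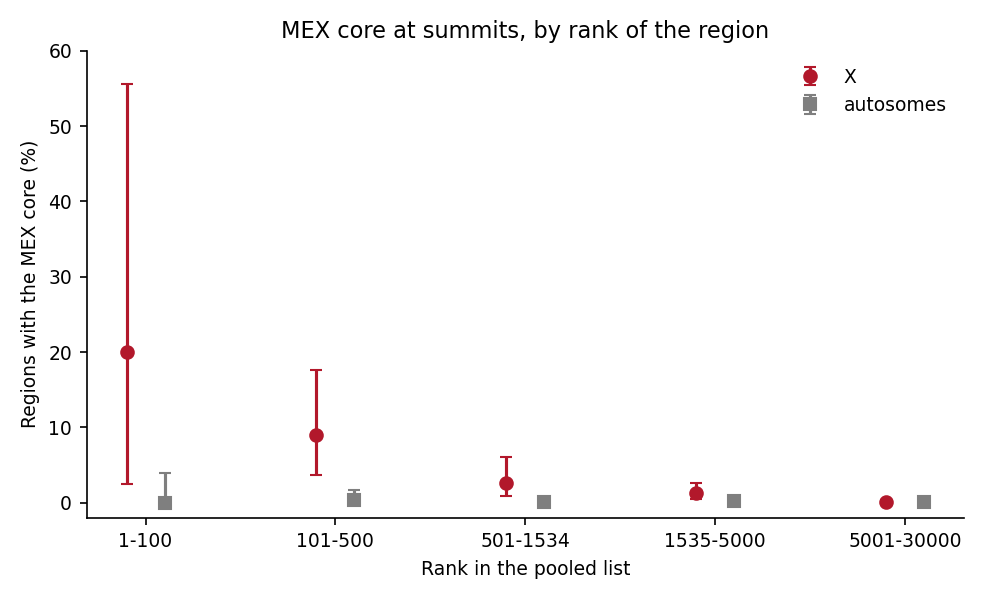
Share of regions, in percent, with the MEX core within 100 bp of the summit, by rank in the pooled list, for X and the autosomes, with 95% exact binomial intervals over regions. The X share was 20% in ranks 1 to 100 and 0.156% in ranks 5001 to 30000, and the autosomal share was at most 0.311%.

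The bases around the core were shared as well. Of the 18 copies, read on the strand of the core, 15 had C directly before it, 11 had TC before it and 14 had A directly after it. The 9 copies with both flanks (TC before and A after) are shown with the core in capitals and named by the nearest coding gene, with ce11 coordinates and strand.
W02H3.3, chrX:11094115-11094142, minus strand: gttttatatcGCGCAGGGagcttatgca
W02H3.3, chrX:11094216-11094243, minus strand: ggaaccattcGCGCAGGGacacctcact
nspc-17, chrX:14525890-14525917, minus strand: attgcctatcGCGCAGGGacagatgtgg
mom-1, chrX:6296566-6296593, plus strand: gataggtatcGCGCAGGGaagatttacc
F20B6.9, chrX:4209256-4209283, minus strand: tgccgctatcGCGCAGGGacacctcttt
F22H10.2, chrX:16682162-16682189, minus strand: agaaaacatcGCGCAGGGaacatcaaat
Y41G9A.17, chrX:2997113-2997140, minus strand: taaatttatcGCGCAGGGaggaagtagc
xol-1, chrX:8036391-8036418, minus strand: attttttatcGCGCAGGGacgtatgtcg
xol-1, chrX:8036425-8036452, plus strand: tttttccatcGCGCAGGGaacccttcga

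These flanks were chosen after the copies under X summits had been seen, as they were common among them. The counts that follow are therefore partly fixed by that choice and are not a test of the flanks. X as a whole has 13 copies of the core with both flanks, and 9 of them were under an X summit. The autosomes have 2, and neither was under a summit. Of the 68 X copies without both flanks, 9 were under a summit. Among the 4 copies with both flanks that lay outside these windows, the nearest to an IDR summit was 207 bp away, also near Y41G9A.17. A second was 125 bp from the summit of rank 3726 in the pooled list, near Y62H9A.9.

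Most MEX copies were away from promoters, 14 of the 18 being outside promoter windows, and the median distance of a core from its summit was 39.5 bp. The strongest region, 3989 bp downstream of the start of W02H3.3, had 2 copies and a signal of 120.5, and ranked 333 and 51. That near nspc-17, 708 bp upstream, had a signal of 118 and ranked 469 and 48. A region 1781 bp upstream of F20B6.9 had a signal of 88.2 and the most uneven ranks of the group, 5958 in replicate 1 and 75 in replicate 2. A region with 2 copies on opposite strands lay 4921 bp upstream of xol-1, the X-linked switch gene of sex determination, and had a signal of 54.7, at ranks 2662 and 333. Weaker MEX regions were in the first intron of egl-17, which encodes a fibroblast growth factor (37.7), and at the promoters of R04E5.9 (41.3), apm-3 (35.5) and gcc-1 (33.3). Apart from W02H3.3, nspc-17, mom-1, Y41G9A.17 and xol-1, the genes at MEX regions were named after their values were seen.

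The B box core was at 12.6% of X summits and 3.90% of autosomal summits. Among regions outside promoters near a tRNA gene its shares were close, 23 of 40 on X and 17 of 29 on the autosomes. E2F-like words were at 15.5% of X summits and at 21.4% of autosomal summits, with autosomes between 18.5% on I and 25.8% on V. At promoter regions the shares were 15.0% on X and 24.2% on the autosomes. The words occur in 5.30% of all windows of X and 6.51% of those of the autosomes. GAGA repeats were at 8.63% of X summits and 8.68% of autosomal summits, and they occur in 1.12% of all windows of X and 1.36% of those of the autosomes. The order turned in each replicate's list, with 8.12% on X and 8.08% on the autosomes in replicate 1 and 9.79% on X and 7.93% on the autosomes in replicate 2. A motif match describes the letters in a window and is not evidence of binding by any factor.

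Mostly masked windows were rare among X regions. The reference genome writes masked bases in lower case, and a summit window of 201 bases was over 50% masked in 2 of 278 X regions (0.719%, 0.0872 to 2.57%), against 218 of 1256 autosomal regions (17.4%, 15.3 to 19.6%). Every autosome exceeded 14%, from 14.2% on IV to 21.1% on I. Replicate 1 gave 0.649% on X and 13.2% on the autosomes, and replicate 2 gave 1.70% on X and 20.9% on the autosomes. Over the chromosomes themselves, 18.9% of all such windows on X and 28.9% on the autosomes are over 50% masked, so X summits were below their own chromosome's level by more than autosomal summits were. Lower-ranked pooled regions were over 50% masked in 7.20% of cases on X and 23.8% on the autosomes. The 2 X regions, named after their values were seen, were 188 bp into K10B3.5 and 579 bp upstream of spat-3, with 54.7% and 51.2% of their windows masked.

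Windows with any masked base were common in both sets, 69.4% on X and 88.3% on the autosomes, and the median masked share of a window was 9.95% on X and 27.6% on the autosomes. The gap in mostly masked windows was widest at promoters, where 1 of 147 X regions and 183 of 866 autosomal regions (21.1%) were over 50% masked. Outside promoters it was 1 of 131 on X and 35 of 390 on the autosomes (8.97%). X windows were also richer in G and C. Their median GC content was 49.3%, against 43.3% on the autosomes, while GC content is 35.2% over the whole of X and 35.5% over the autosomes. At promoters the medians were 49.3% on X and 41.3% on the autosomes, and outside promoters they were 49.8% on X and 48.8% on the autosomes. Both replicates showed this, with 49.5% on X and 44.3% on the autosomes in replicate 1 and 48.3% on X and 42.8% on the autosomes in replicate 2. Masked share and GC content moved together with chromosome and with promoter class, and the part of each in the other was not tested.

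Nearly all X regions had a match in the lists of both samples, but the samples ranked them differently. Each list holds 30000 ranked regions, so a match alone can have a very low rank and is not a call of binding. A region was matched to a replicate's list where summits were within 100 bp. Of the 278, 254 (91.4%) had a match in both lists, 12 in replicate 1 only and 12 in replicate 2 only, and the autosomal share in both was 89.1%. Counting only the first 1534 ranks of each replicate, 126 X regions were in both (45.3%, 39.4 to 51.4%), against 52.9% of autosomal regions and 51.5% of all. The median rank of X regions was 729 in replicate 1 and 884 in replicate 2, and that of autosomal regions was 799 in replicate 1 and 736 in replicate 2.

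The kinds of X region leaned to different samples. Of the 137 X promoter regions in both lists, 96 ranked higher in replicate 1 and 41 in replicate 2, with median ranks of 581 and 950, whereas autosomal promoter regions split 373 to 437. Regions outside promoters near a tRNA gene leaned the other way on X, with 32 of 38 higher in replicate 2 and median ranks of 1816 and 713, and on the autosomes 23 of 25 did so. Of the 10 MEX regions outside promoters and away from tRNA genes, 9 ranked higher in replicate 2, with median ranks of 530.5 and 195. The remaining X regions split 37 to 32. As the counts of tRNA and MEX regions depend on the replicate, the values of each replicate's list are given beside them above. Region widths also differed, with a median of 220 bp in replicate 1 and 316 bp in replicate 2. X as a whole also held a larger share of the 30000 ranked regions in replicate 1 (19.4%) than in replicate 2 (14.5%). Depth per sample is unknown from these lists. The part of width, depth or the share of X as a whole in the different ranks was not tested.

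**Figure D5:**
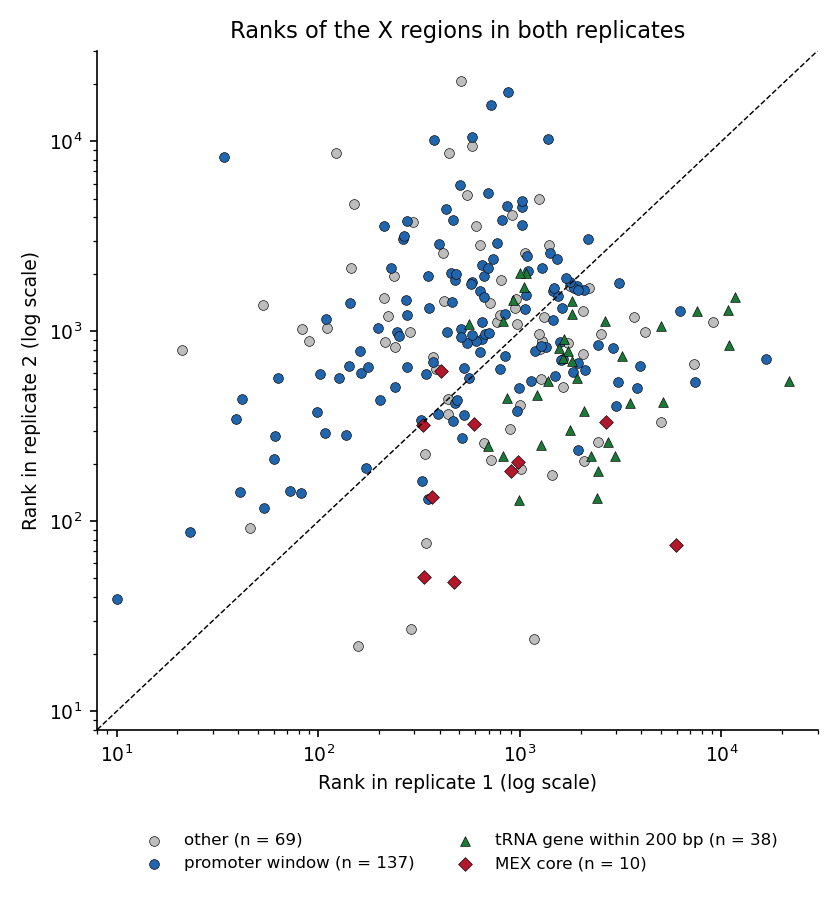
Rank of each X region in replicate 1 and in replicate 2, on log axes, for the 254 regions found in both lists. Colours separate promoter regions, regions near tRNA genes, regions with the MEX core and all others, each region counted once in that order, and the dashed line marks equal ranks. Of the 137 promoter regions 96 ranked higher in replicate 1, and of the 38 tRNA regions 32 ranked higher in replicate 2.

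X has few members of the gene families that held many autosomal regions. Lists of genes were chosen with earlier results of these data known, and a member counted where a summit lay in its promoter window, as 6.04% of X coding genes and 6.83% of autosomal coding genes did. Of ribosomal protein genes, X had 2 and 1 had a region, rpl-11.2, against 63 of 79 on the autosomes. X had no proteasome gene and no gene of the mitochondrial ribosome and import list, of which 14 of 33 and 17 of 83 autosomal members had a region. Neither of its 2 splicing genes had a region, against 20 of 46 on the autosomes.

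The list of respiratory chain genes, built from gene name prefixes, had 5 members on X, and each had a region, against 26 of 64 on the autosomes. They included asb-2, a subunit of ATP synthase (signal 97.6), sdha-1, a subunit of succinate dehydrogenase (65.0), and ucr-2.2 and ucr-2.1, core proteins of the cytochrome bc1 complex (61.1 and 50.4). The prefixes miss some members on X, such as gas-1, a subunit of NADH dehydrogenase, and R07E4.3, a subunit of the cytochrome bc1 complex by its RefSeq product, which also had regions (33.8 and 52.7). Both were named after their values were seen, so they do not extend the count. Missed members without a region, and missed members on the autosomes, are not listed here. Of translation factors and aminoacyl-tRNA synthetases, 2 of 3 did, eef-1A.2 (51.9) and ife-2 (46.9), against 20 of 69 on the autosomes. Of cell cycle and replication genes, 3 of 4 did, klp-13 (50.03), cdk-11.2 (49.9) and cdk-4 (33.1), against 25 of 100. Of chaperones, 2 of 5 did, hsp-3 and dnj-14, against 19 of 54, and of genes with the his and htz names 1 of 4, the linker histone his-24 (69.3), against 15 of 69. That list leaves out hil-3, named above, which also had a summit in its promoter window, 32 bp upstream, with a signal of 69.5. With so few members on X, these shares carry wide counting error.

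Among families with many members on X, counts were as follows. Of 76 neuropeptide and channel genes on X, 1 had a region, glr-6, a glutamate receptor (37.0), against 1 of 204 on the autosomes. The summit lay 338 bp upstream of glr-6 and 200 bp upstream of the neighbouring asg-2. The same region is thus also counted for asg-2 in the respiratory chain list above. The gene asg-2 was named after its values were seen. None of 28 collagen genes and none of 5 vitellogenin genes did, against 2 of 136 and 0 of 1 on the autosomes. Of 27 nuclear hormone receptor genes, 2 did, nhr-1 (63.5) and nhr-32 (45.5), against 3 of 247 on the autosomes, and of 20 homeobox genes 1 did, ceh-39, against 1 of 61. The shares of these last 2 families were thus close to the 6.04% of all X coding genes.

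Of 6 X-encoded regulators of sex and dosage compensation, 1 had a region, against 3 of 18 on the autosomes, the same share. It was ceh-39, a ONECUT homeobox gene that acts as an X signal element, with a summit 228 bp upstream, a signal of 50.5, and ranks 355 and 1319. The nearest IDR summits to sex-1 and fox-1, which also count X chromosomes, were 46491 and 36178 bp away. Those to sdc-1 and sdc-2, which encode proteins of the dosage compensation complex, were 65835 and 83226 bp away. For sdc-2, the nearest pooled summit was 403 bp away at rank 1699, below the IDR list. None of the 4 X members of the synMuv, DREAM and HP1 list had a region, against 8 of 23 on the autosomes. The nearest IDR summit was 954 bp from lin-15B, a synMuv B gene, 6799 bp from lin-15A, a synMuv A gene, and 6270 bp from hpl-1, an HP1 homolog. Summits of the pooled list below the IDR list were nearer, 412 bp from lin-15B at rank 1884, 1484 bp from lin-15A at rank 22735 and 89 bp from hpl-1 at rank 5059. Likewise, pooled summits were 303 bp from sdc-1, 159 bp from xol-1, 797 bp from sex-1 and 90 bp from fox-1, at ranks 11275, 9456, 3435 and 10007.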

How the data were processed

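The 2 samples were replicates of ChIP-seq against eGFP-LIN-13 in embryos. The deposited files are ranked region lists in narrowPeak format. Per the file headers, the lists came from the alignments of each replicate with a control, from both pooled, and from IDR over these. The signal in column 7 is the value the authors' peak caller gave each region, on a scale of its own in each list, so values were compared only within a list. Which aligner, caller and threshold were used is not given in the sources used here. Depth is unknown, since no read counts are in the lists. No column belonged to other samples.

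Only ce11 lists were used for placement, with the WBcel235 genome and Ensembl annotation (release 115) and RefSeq product names, counted from 1. Each summit took the annotation class found first among coding exon, 5' UTR, 3' UTR, noncoding exon, intron and intergenic. Motif, masking and GC windows were 100 bp to each side of the summit. Shares carry exact Clopper-Pearson intervals (95%), with no test. The 16 gene lists, the motifs and the regions were chosen with earlier results of these data known. Genes named were those at the 20 strongest and 3 weakest X regions, hosts of the 10 strongest intronic ones, up to 4 members with a region per list, up to 4 small RNA genes, and 9 regulators on X. Windows printed were those of the 8 strongest X summits, except F35A5.8, whose window reaches into a UTR, and the strongest in introns, near tRNA genes and with the MEX core. Scripts used Python 3.11.15, numpy 2.4.6, pandas 2.3.3 and SciPy 1.17.1 and were tested on simulated regions of known placement.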

Additional observations from a re-analysis of the deposited data

How the results depend on the processing

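The alternatives were each replicate's own first 1534 ranks, the stronger part of the list (first 767 ranks), regions in the top of both replicates, and other windows, distances and mask levels. The difference in promoter share (X minus autosomes, -16.1 percentage points) stayed below 0 throughout. It was -25.3 in the stronger part, -23.4 in the top of both, -11.0 with 1000 bp upstream and -18.4 with 300 bp upstream and 100 bp downstream, and between -16.2 and -13.5 in single replicates. The tRNA difference (13.5 points) was between 3.97 and 15.3 in single replicates. The MEX core difference (4.88 points) was 6.88 in the stronger part and between 3.25 and 5.22 in single replicates. The masked difference (-16.6 points) was -18.9 when any masked base counted, -1.11 when over 80% masked was required, where X had 0 regions, and between -19.2 and -12.6 in single replicates. The share of coding genes with a region (-0.790 points) turned to 2.77 when each summit was given to its nearest gene at any distance, and was between -1.94 and 0.193 in single replicates, so no direction is read from it. The GAGA difference (-0.0453 points) turned to 1.63 in the stronger part, 1.87 in the top of both and 3.20 with 200 bp windows, and was between 0.0418 and 1.86 in single replicates. X regions in both replicate lists were 70.5% with summits within 50 bp, 98.2% within 200 bp and 98.2% by any overlap. The ratio of median signals (X over autosomes, 0.994) was 0.910 at promoters and 0.997 in the top of both, and between 0.988 and 0.991 in single replicates. The ce10 list had 292 of 1608 regions on X (18.2%). The causes were not tested. No paired analysis was possible because the study has a single group.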
